A study of Mus musculus with 9 samples.

Results

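The genes described here are 10 that endothelial cells, and in the liver mainly sinusoidal endothelial cells, are known to express: Pecam1, Cdh5, Kdr, Tek, Tie1, Eng, Stab1, Stab2, Lyve1 and Vwf. They were chosen by name, and every probe whose symbol (or, failing that, synonym) was one of these names was taken. This gave 14 of the 45281 gene probes on the array, of which 13 passed the filter on low values and were tested among 20573 probes. The study followed hepatic stellate cells (HSCs), the collagen-producing pericytes of the liver sinusoid, which become activated HSCs (aHSCs) in injury or on plastic. RNA was measured on 9 Illumina mouse bead arrays, 1 per sample, with no separate endothelial sample. Per the labels all cells came from male C57/Bl6 mice (the study's methods name both sexes for culture work) of the genotype WT1GFP/+, in which green fluorescent protein (GFP) stands at 1 allele of WT1, a transcription factor gene of the mesothelium, the cell layer covering the liver.

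The 3 WT1-high samples (replicates 1, 8 and 29) and the 3 WT1-intermediate samples (replicates 1, 8 and 30, GFP low in the labels) were sorted from livers given carbon tetrachloride injections over a long period, and per the study these 6 samples came from 3 animals. The 3 WT1-negative samples (replicates 3, 11 and 14) lacked GFP and were sorted once HSCs of uninjured animals had spent 7 days on plastic. All cells were enriched by density centrifugation and gated on GFP. An additional gate against endothelial cells or macrophages is not given in the sources used here. Injury or culture, WT1 status and the table in which the arrays were exported change together between the WT1-negative samples and the others and cannot be told apart. In pooled RNA from sorted cells, fewer cells of a type and less RNA per cell cannot be told apart either.

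Sinusoidal endothelium lines the blood channels against which HSCs lie, and it differs from endothelium elsewhere in having open pores, little basement membrane and strong scavenging of waste molecules from blood. PECAM-1 and VE-cadherin (Cdh5) hold endothelial cells together. VEGFR2 (Kdr) binds vascular endothelial growth factor, TIE2 (Tek) binds the angiopoietins with TIE1 as its partner, and endoglin (Eng) is a co-receptor for BMP9 and other ligands of the TGF-β family. Stabilin-1, stabilin-2 and LYVE-1 take up or bind hyaluronan, modified proteins and other ligands, and von Willebrand factor (Vwf) is the clotting protein stored in endothelium. None of these genes is wholly private to endothelium: macrophages can express Stab1, Lyve1 and Eng, and platelets and megakaryocytes contain PECAM-1 and von Willebrand factor.

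Pecam1, Cdh5 and Stab1 each had a pair of probes that passed the filter, and the probes of 1 gene did not give equal differences. The stretches they read are shown because the results for these genes depend on the probe. Why the probes differ was not tested. Each line holds 30 bases of the 50-base probe, 5′ to 3′ as deposited.
Pecam1 probe ILMN_2700982, bases 1 to 30: ccccgctgccttgttcatgttgggtataca
Pecam1 probe ILMN_3147074, bases 1 to 30: acggtttcctaaggtctgagctgtttccca
Cdh5 probe ILMN_2771550, bases 1 to 30: ggaatcctcccccaacaaggcctttctgca
Cdh5 probe ILMN_2866951, bases 1 to 30: cacatctcagggaatgaacctcacccccag
Stab1 probe ILMN_2544343, bases 21 to 50: ctcagccaccctgacaagcAATAAAaatgg
Stab1 probe ILMN_2727432, bases 1 to 30: cctggtttctgtccccaaccctgtttttgg
Capitals mark AATAAA, the letters of the common polyadenylation signal, searched on the strand of the probe only. It stood in 1 of the 14 member probes, Stab1 ILMN_2544343, and in 1.79% of all probes on the array. The deposited annotation placed the Pecam1 probes on chromosome 11, Tek and Tie1 on 4, Eng on 2, Stab2 on 10, Lyve1 on 7 and Vwf on 6. It placed Cdh5 ILMN_2866951 on 8 and Kdr ILMN_2665788 on 5. No chromosome was given for the Stab1 probes, Cdh5 ILMN_2771550 or Kdr ILMN_2572649.

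The arrays detected 17253 to 19774 probes in vivo and 17484 to 18505 in culture. The mean intensity was 231 to 289 on WT1-high and 147 to 221 on WT1-intermediate arrays, and housekeeping beads read 5854 to 6722 and 3530 to 5419, without overlap in either measure. Biotin control beads were brighter on the in vivo arrays (mean 4399 to 4876) than on the cultured ones (2872 to 3134). A member probe was read from 21 to 57 beads, with a bead standard error of 1.58% to 6.87% of its intensity, and 105 of the 126 member values were above background (detection p under 0.05). Levels are log2 of the intensity after background correction and quantile normalisation (neqc), so 1 unit is a doubling, and levels of different probes are not compared. A gene is said to have risen or fallen where limma's adjusted p (Benjamini-Hochberg over all 20573 probes) was under 0.05. Of the listed HSC genes, Des, Pdgfrb, Dcn, Ecm1 and Cygb were among those detected on all 9 arrays, and Lrat, Rgs5, Bambi, Lhx2 and Vipr1 did not pass the filter. Des, the intermediate filament gene of HSCs, had a level of 8.07 ± 0.31 in WT1-negative, 8.12 ± 0.73 in WT1-high and 6.73 ± 0.42 in WT1-intermediate aHSCs (SD, n = 3). The HSC genes Pdgfrb and Hgf went the other way, with lower levels in WT1-high than in WT1-intermediate aHSCs. The call of Des between these groups depended on the processing.

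The question of the first comparison was how the pair of WT1-expressing populations from the same injured livers differ. Endoglin, TIE2, stabilin-2 and 1 of the probes for stabilin-1 were lower in WT1-high than in WT1-intermediate aHSCs, by 1.71 to 2.52-fold. These were 4 of 13 member probes, all lower, where 3.55% of all probes were called in this comparison, 2.64% as lower and 0.904% as higher. Lyve1 and 1 probe each of Cdh5 and Pecam1 were below in all 3 WT1-high samples without passing the test. Kdr, Tie1 and Vwf, and the Cdh5 probe ILMN_2866951, stood near background in both populations. Taking the brightest probe of each gene, the median log2 difference of the 10 genes was -0.70, and that of all tested probes 0.05.

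**Figure D1:**
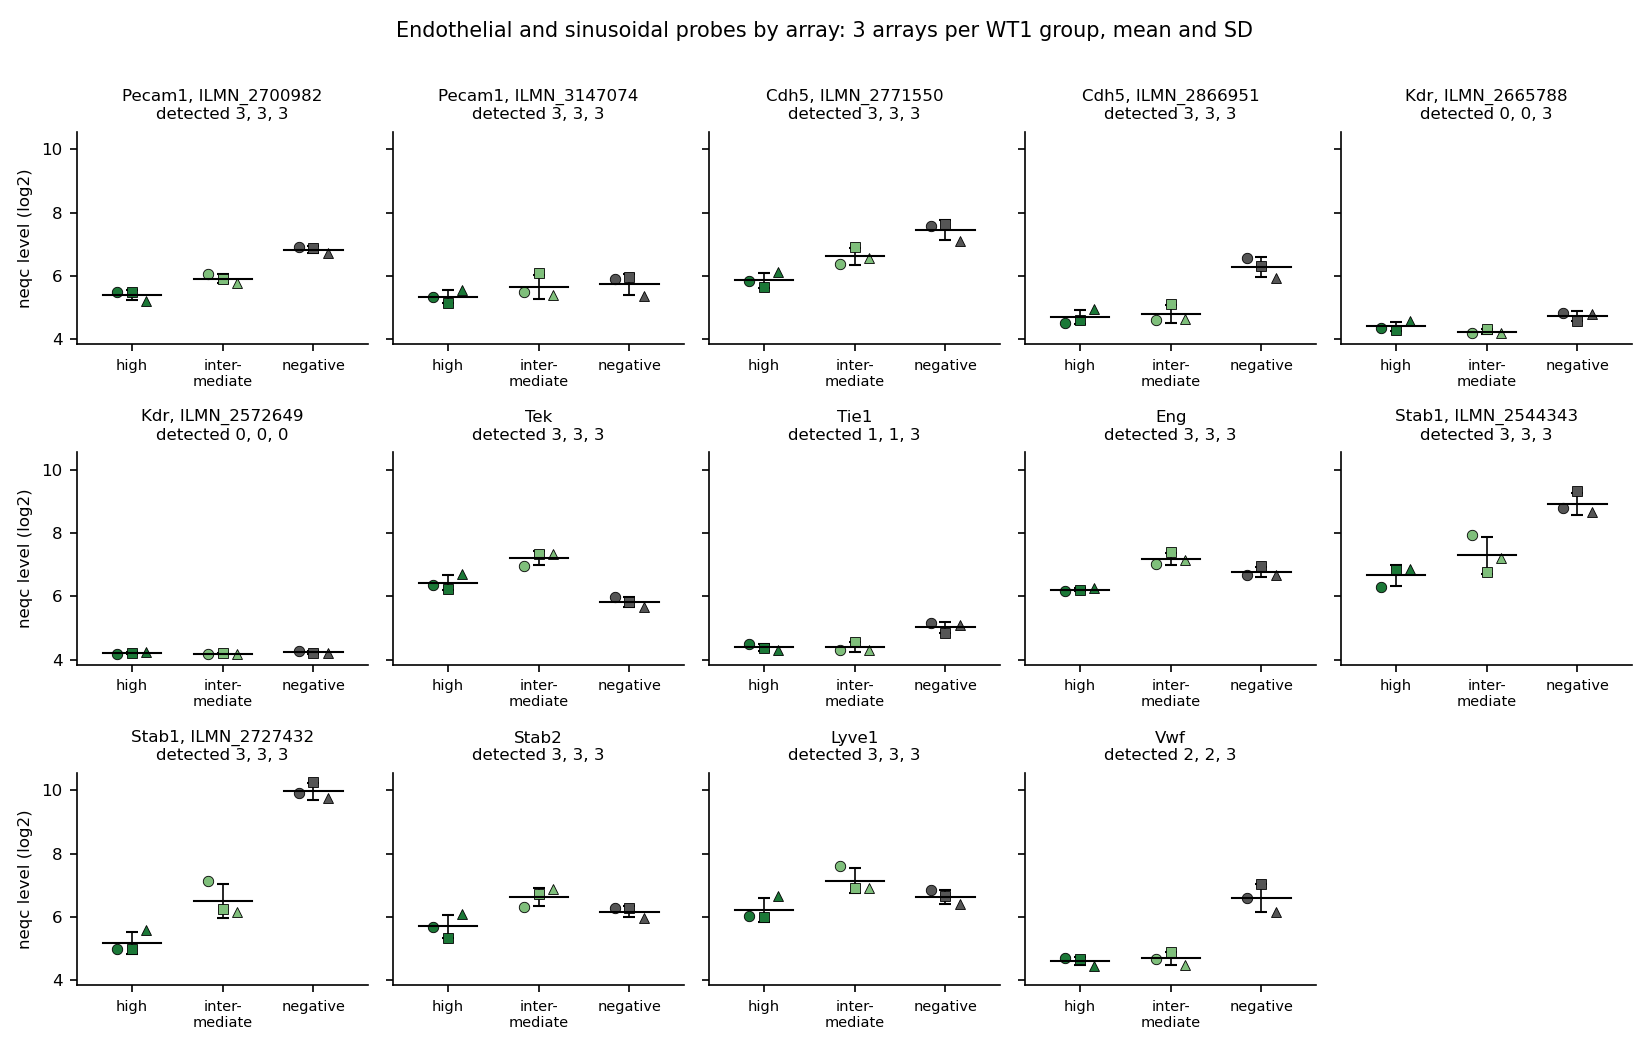
Level (neqc, log2) of each of the 14 member probes in WT1-high, WT1-intermediate and WT1-negative aHSCs; circle, square and triangle are the 3 arrays of a group in the order of their replicate numbers, the bar is the mean, the whisker the SD, and the panel heading counts the arrays of each group on which the probe was detected. Tek, Eng, Stab2 and Lyve1 peak in WT1-intermediate samples, and Pecam1 (ILMN_2700982), Cdh5, Stab1 and Vwf are highest in the WT1-negative samples.

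Eng gave the firmest difference of this comparison. Its level was 6.17, 6.20 and 6.26 in WT1-high replicates 1, 8 and 29, and 7.02, 7.39 and 7.16 in WT1-intermediate replicates 1, 8 and 30. All WT1-intermediate samples were above all WT1-high samples. The log2 difference was -0.98 (standard error 0.15, 95% interval -1.32 to -0.65, adjusted p = 0.006), a 1.97-fold lower level in WT1-high aHSCs. It passed the test on leaving out any 1 array (adjusted p 0.0072 to 0.026).

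Tek, the angiopoietin receptor, had levels of 6.37, 6.23 and 6.70 in WT1-high and 6.96, 7.33 and 7.33 in WT1-intermediate samples, again without overlap. It was 1.71-fold lower in WT1-high aHSCs (log2 difference -0.77, standard error 0.17, adjusted p = 0.036). Tie1, its partner receptor, was detected on 1 of 3 arrays in each of these groups, and its log2 difference was 0.00050 with a 95% interval of -0.34 to 0.34.

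Both stabilins are scavenger receptors of the sinusoidal wall. Stab2 had levels of 5.68, 5.33 and 6.08 in WT1-high and 6.30, 6.72 and 6.87 in WT1-intermediate samples. The groups did not overlap and Stab2 was 1.91-fold lower in WT1-high aHSCs (log2 difference -0.93, standard error 0.22, adjusted p = 0.038). Stab1 probe ILMN_2727432 read 4.97, 4.97 and 5.58 in WT1-high and 7.13, 6.24 and 6.16 in WT1-intermediate samples, a 2.52-fold lower level (log2 difference -1.33, standard error 0.27, adjusted p = 0.023). Stab1 probe ILMN_2544343, which carries the letters AATAAA, read 6.29, 6.82 and 6.87 against 7.92, 6.77 and 7.20. Here the groups overlapped and the difference of -0.64 did not pass the test (standard error 0.29, adjusted p = 0.29).

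Lyve1, the hyaluronan receptor, had levels of 6.01, 6.01 and 6.66 in WT1-high and 7.60, 6.91 and 6.91 in WT1-intermediate samples. The groups did not overlap, and the log2 difference of -0.92 (standard error 0.24, adjusted p = 0.062) did not pass the test. For the junction genes, the Pecam1 probe ILMN_2700982 read 5.47, 5.49 and 5.21 against 6.05, 5.89 and 5.78 (log2 difference -0.52, standard error 0.15, adjusted p = 0.087). The Cdh5 probe ILMN_2771550 read 5.82, 5.64 and 6.11 against 6.38, 6.91 and 6.57 (-0.76, standard error 0.21, adjusted p = 0.071). All WT1-high values of both probes were below all WT1-intermediate values. The second probes of both genes overlapped, with differences of -0.31 for Pecam1 ILMN_3147074 (adjusted p = 0.53) and -0.10 for Cdh5 ILMN_2866951 (adjusted p = 0.86). In all, 7 of 13 member probes were lower without overlap and none was higher, where 20.1% of all probes did not overlap and 8.6% were lower without overlap.

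**Figure D2:**
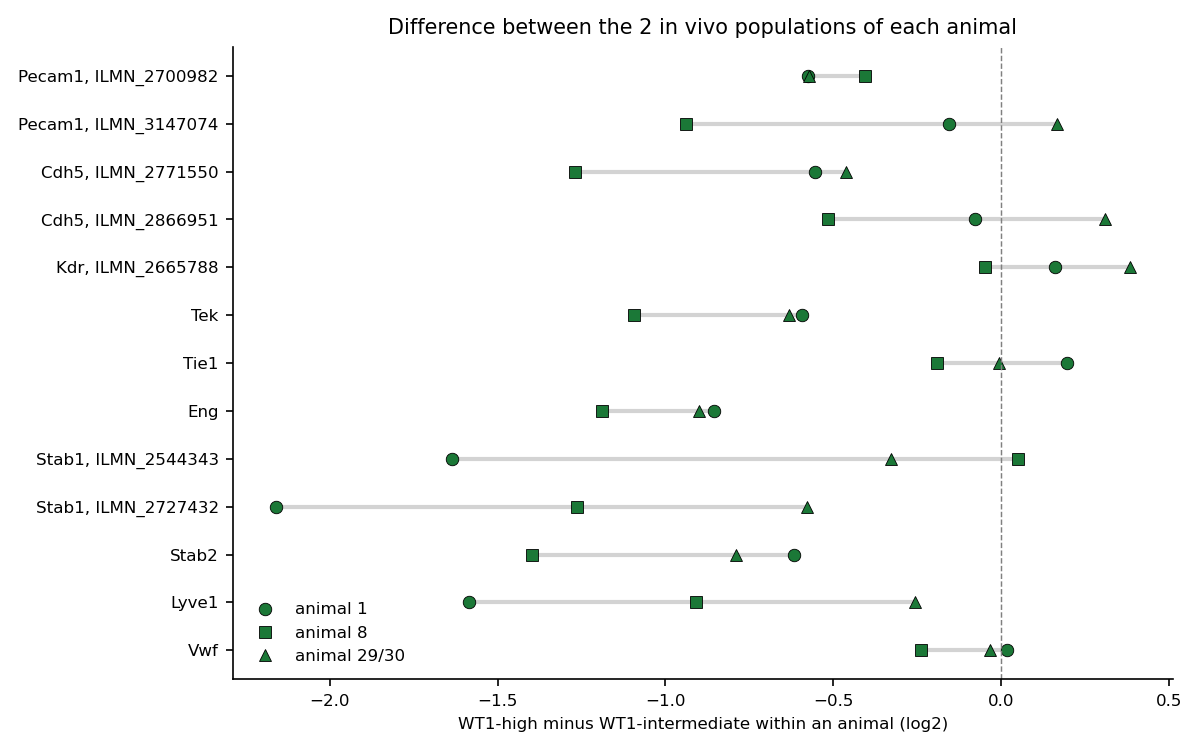
Log2 difference of WT1-high minus WT1-intermediate within each of the 3 animals for the 13 tested member probes; circles are animal 1, squares animal 8 and triangles the pair labelled 29 and 30. Eng lies between -1.19 and -0.85, and Tek, Stab2, Lyve1, Stab1 (ILMN_2727432), Pecam1 (ILMN_2700982) and Cdh5 (ILMN_2771550) are also lower in WT1-high cells of every animal.

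Samples of 1 animal deviated together, so the comparison was also made with the animal as a block. With a random block 7 member probes were called, all lower in WT1-high aHSCs: the 4 above together with Lyve1 (adjusted p = 0.022), Cdh5 ILMN_2771550 (0.023) and Pecam1 ILMN_2700982 (0.025), where 8.73% of all probes were called. A fixed block for the 3 animals also called 7, beside 8.05% of all probes. Within animals, Eng was lower by -0.85, -1.19 and -0.90 on the log2 scale, and Lyve1 by -1.59, -0.91 and -0.26.

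The calls other than Eng were lost when single arrays were left out. Tek then had an adjusted p of 0.088 or 0.13 on dropping WT1-high replicates 1 or 8, of 0.083 or 0.084 on dropping WT1-intermediate replicates 8 or 30, and of 0.05 to 0.057 on dropping any WT1-negative array. Stab2 was lost on dropping any of the same arrays (0.051 to 0.14), and Stab1 ILMN_2727432 on dropping WT1-high replicates 1 (0.065) or 8 (0.098), or WT1-intermediate replicate 1 (0.061). Lyve1 passed without WT1-high replicate 29 (0.038). Scaling the arrays to equal medians moved the median of all probes by 0.40, to 0.45. On that scale Eng differed by -0.35, Tek by -0.14 and Stab2 by -0.39. Kdr differed by 0.10, Pecam1 ILMN_3147074 by 0.040, Stab1 ILMN_2544343 by 0.0074 and Vwf by 0.0048. There limma called none of the 13 member probes (1 had an unadjusted p under 0.05), where 13.0% of all probes were called. All 13 lay below the median of all probes, Eng by -0.80, Tek by -0.59 and Stab2 by -0.84. Probes near background, such as Kdr and Vwf, stayed near 0, so their place below that median tells nothing about these genes. Before any normalisation, as the deposited intensity less the array's median negative control bead, Tek was 83.7 ± 14.6 in WT1-high and 90.3 ± 47.1 in WT1-intermediate samples (SD, n = 3), and Eng 70.8 ± 22.7 and 90.8 ± 52.6. On that scale the WT1-intermediate mean was 1.08 times the WT1-high mean for Tek, 1.28 for Eng, 1.34 for Stab2 and 2.19 for Stab1 ILMN_2727432. It was 1.19 for Cdh5 ILMN_2771550 and 1.21 for Lyve1, but 0.94 for Pecam1 ILMN_2700982 and 0.91 for Stab1 ILMN_2544343. Tek was higher in the WT1-high sample of animal 1 (70.8 and 69.5) and of the pair 29 and 30 (80.7 and 57.2). In animal 8 it was lower there (99.6 and 144). Eng too was higher in WT1-high replicate 29 (55.3) than in WT1-intermediate replicate 30 (49.5). The sizes of these differences, and in some probes and animals their direction, thus rest on the scaling between arrays.

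The macrophage genes moved in the same direction in these samples. Of 19 tested macrophage and monocyte genes, 14 fell in WT1-high aHSCs and none rose (73.7%, where 3.55% of all probes were called). Their median log2 difference was -2.00. C1qa, a subunit of complement C1q made by tissue macrophages, differed by -2.83 (adjusted p = 7e-06), Emr1 (F4/80) by -2.14 and Cd68 by -2.12. The summed level of the list (linear scale) was 44026 to 48404 in WT1-negative samples, 16377 to 26182 in WT1-intermediate and 4591 to 8080 in WT1-high ones. The brightest genes weigh most in that sum. Gene by gene, WT1-intermediate differed from WT1-negative samples by a median of 0.10, with 10 genes higher and 9 lower. Of the 19 tested macrophage genes only Itgam was detected on no WT1-high array, and only Clec4f and Timd4 on no WT1-negative one, while Cd5l, Ccr2 and Msr1 were detected on no array and not tested. With median scaling 8 macrophage genes fell, with a median of -1.34, where 13.0% of all probes were called. The platelet chemokine gene Cxcl4 differed by -3.51 and was the only one called of 6 tested platelet genes, whose median was -0.02. What part these cells had in the stabilin, endoglin and LYVE-1 values was not tested.

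The ligands and partners of the 10 genes were examined next, by a list of 27 genes of which 22 passed the filter. In WT1-high against WT1-intermediate aHSCs 3 fell and none rose (13.6%, where 3.55% of all probes were called), with a median of -0.18. With median scaling 13.0% of all probes were called, and their median was 0.45. In this list 1 then fell and 2 rose, with a median of 0.18. Vegfa, the main ligand of VEGFR2, differed by -1.08 (adjusted p = 0.013). Nrp1, the neuropilin that joins VEGF receptors, differed by -1.49 (adjusted p = 0.0032). Angptl1, an angiopoietin-like gene, was not detected in WT1-high samples and was at least 2.06-fold lower there (adjusted p = 0.0098). The call of Vegfa was lost without WT1-intermediate replicate 1 (adjusted p = 0.057), with median scaling (-0.39, adjusted p = 0.36) and without the filter (0.05), that of Nrp1 with median scaling (-0.80, adjusted p = 0.11) and that of Angptl1 without the filter (0.056).

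Of 32 tested genes of a list of other genes enriched in endothelium, 3 fell and 1 rose (12.5%, where 3.55% of all probes were called). The median of this list was -0.19, or -0.13 with genes at background in 1 group set to their bound. With median scaling the balance turned, to none fallen and 6 risen, where 13.0% of all probes were called. The median of the list was then 0.042, and that of all probes 0.45. Icam2, an endothelial adhesion molecule, differed by -1.40 (adjusted p = 0.0029), the guidance receptor gene Robo4 by -1.06 (0.017) and Egfl7, a secreted angiogenic factor, by -0.95 (0.028). Cav1, the caveolin of membrane pits, rose by 0.70 (0.028). Of 17 tested genes of a list enriched in sinusoidal endothelium, 3 fell and 1 rose (23.5%, beside the same 3.55%), with a median of -0.35. Here too median scaling turned the balance, to 1 fallen and 3 risen beside 13.0% of all probes called, and the median to 0.15. Fcna, a lectin of complement, differed by -2.26 (adjusted p = 0.0065), the mannose receptor gene Mrc1 by -1.09 (0.0038) and the Fc receptor gene Fcgr2b by -1.08 (0.029), and Wnt2, the sinusoidal Wnt ligand, rose by 0.62 (0.04). Macrophages also express Mrc1, Fcgr2b and Fcna. Icam2, Mrc1 and Fcna kept their calls on leaving out any 1 array, but median scaling lost Icam2 (-0.77, adjusted p = 0.087) and Mrc1 (-0.42, 0.18), and testing without the filter lost Fcna (0.059). Median scaling also lost Robo4 (-0.40, 0.31), Egfl7 (-0.25, 0.48) and Fcgr2b (-0.38, 0.51). Robo4 was lost without WT1-high replicates 1 or 8 or WT1-intermediate replicate 1 (0.053 to 0.073), Egfl7 without these or WT1-intermediate replicate 30 (0.058 to 0.11), Cav1 without WT1-intermediate replicate 1 or any WT1-high array (0.066 to 0.11), Fcgr2b without WT1-intermediate replicates 1 or 8 or any WT1-high array (0.052 to 0.11), and Wnt2 without any 1 array but WT1-intermediate replicate 30 (0.057 to 0.13).

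The other comparisons set each in vivo population against the WT1-negative aHSCs of culture, and both use the same 3 WT1-negative arrays. By their brightest probes, Pecam1, Cdh5, Tie1, Stab1 and Vwf were called higher in the WT1-negative cultured samples than in both in vivo groups. Stab1 was higher in culture than in WT1-high and WT1-intermediate samples by 4.80 and 3.09-fold at its brightest probe. At its other probe, ILMN_2727432, it was 27.6 and 11.0-fold higher. Vwf, Cdh5 and Pecam1 were 1.77 to 4.01-fold higher in culture by their called probes. Without background correction the WT1-high log2 differences were smaller, -3.31 in place of -4.79 for Stab1 ILMN_2727432 and -0.84 in place of -2.00 for Vwf. Tek alone was higher in both in vivo populations. Eng, Stab2 and Lyve1 had WT1-negative means between those of the in vivo groups. Against WT1-negative aHSCs, 9 of 13 member probes were called in WT1-high samples (8 lower, 1 higher), where 59.6% of all probes were called (33.1% lower, 26.5% higher). In WT1-intermediate samples 10 of 13 were called (8 lower, 2 higher), beside 58% of all probes (33.6% lower, 24.4% higher). The 10 genes had a median of -0.60 in the first of these comparisons and -0.57 in the second (-0.40 with Kdr at its bound), and all probes -0.10 and -0.13.

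**Figure D3:**
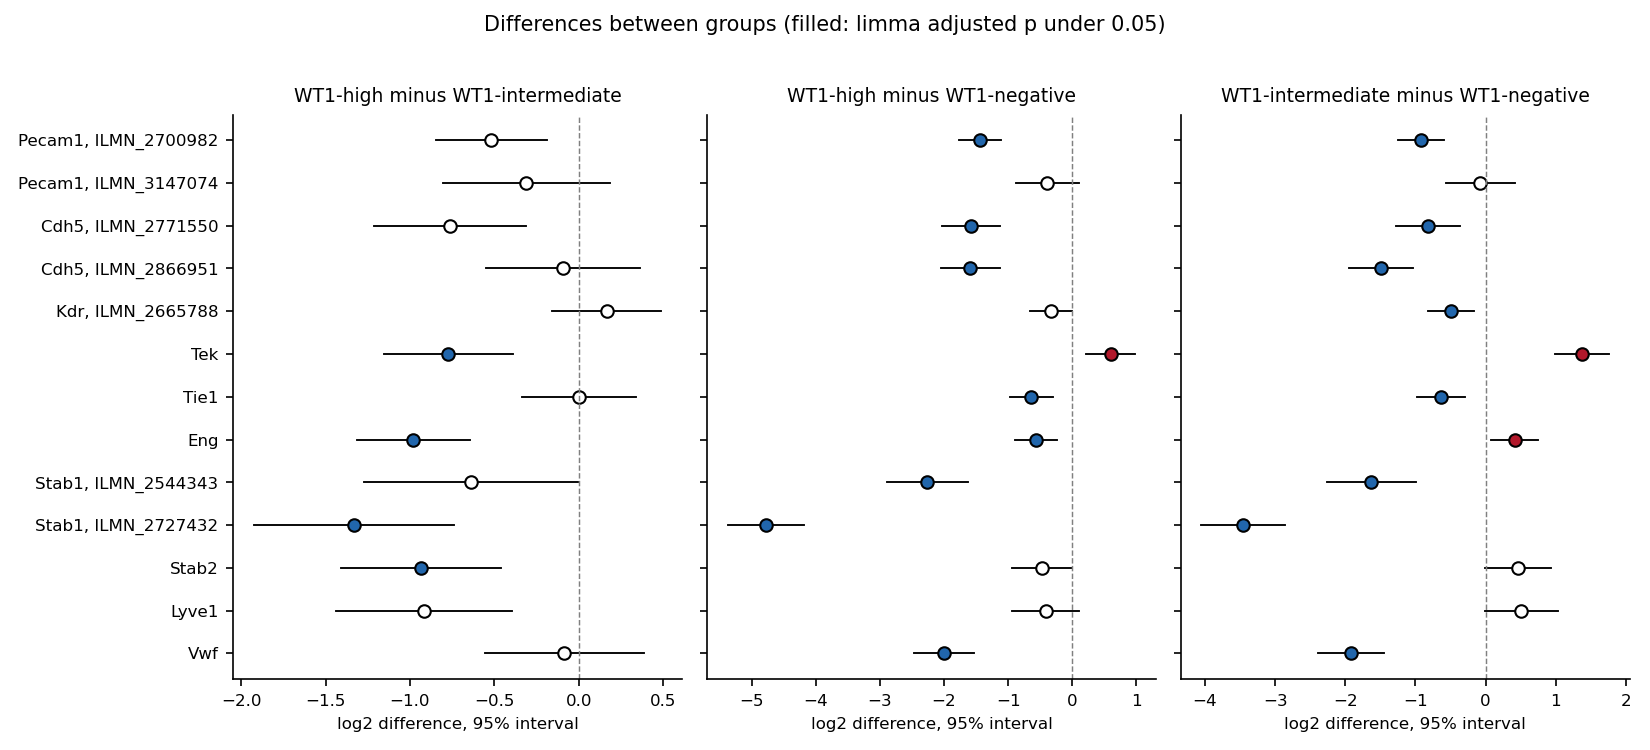
Log2 differences between the groups for the 13 tested member probes, with 95% intervals from limma; blue is lower and red higher in the first-named group at an adjusted p under 0.05, and white did not pass. The left panel holds 4 blue points (Tek, Eng, Stab1 ILMN_2727432 and Stab2), and Tek is red in both other panels, at 0.60 and 1.38.

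Stab1 probe ILMN_2727432 read 9.90, 10.25 and 9.74 in WT1-negative replicates 3, 11 and 14, far above every in vivo value. It was 27.6-fold lower in WT1-high (log2 difference -4.79, standard error 0.27, adjusted p = 1e-07) and 11.0-fold lower in WT1-intermediate aHSCs (-3.46, adjusted p = 1.5e-06). As deposited, before any normalisation, its intensity was 1176, 1435 and 1096 in the WT1-negative samples and 98.4 to 158 on the 6 in vivo arrays. Stab1 probe ILMN_2544343 read 8.79, 9.32 and 8.66 in the WT1-negative samples and was 4.80-fold lower in WT1-high (adjusted p = 4.8e-05) and 3.09-fold lower in WT1-intermediate aHSCs (adjusted p = 0.00059). Both probes were thus highest in culture, with smaller differences from it at ILMN_2544343, and why was not tested.

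Vwf read 6.61, 7.04 and 6.16 in WT1-negative samples, against 4.69, 4.66 and 4.45 in WT1-high and 4.68, 4.90 and 4.48 in WT1-intermediate ones, where it was detected on 2 of 3 arrays in each group. It was 4.01-fold lower in WT1-high (log2 difference -2.00, standard error 0.22, adjusted p = 1.3e-05) and 3.78-fold lower in WT1-intermediate aHSCs (adjusted p = 2.2e-05). Every WT1-negative value exceeded every in vivo value. Of the platelet genes, Ppbp was detected on the 3 WT1-negative arrays and on none in vivo, Treml1 on 3 and on 1 in vivo, and Itga2b on none of the WT1-negative arrays and on all 6 in vivo.

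VE-cadherin was lower in WT1-high aHSCs than in culture at both of its probes. The fold was nearly the same at the reported setting (-1.58 and -1.59), with median scaling (-1.62 and -1.65) and with cyclic loess (-1.53 and -1.56). It was not the same under other background treatment. Without background correction the log2 differences were -0.93 for ILMN_2771550 and -0.62 for ILMN_2866951. As deposited intensity less the negative control median, culture was 3.64 and 5.78 times WT1-high. ILMN_2866951 lay near background in vivo, with detection p-values of 0.0021 to 0.046. Cdh5 ILMN_2771550 read 7.59, 7.65 and 7.09 in WT1-negative samples and was lower by -1.58 in WT1-high (standard error 0.21, adjusted p = 5.5e-05) and by -0.82 in WT1-intermediate aHSCs (adjusted p = 0.0052). Cdh5 ILMN_2866951 read 4.52, 4.60 and 4.94 in WT1-high, 4.60, 5.11 and 4.63 in WT1-intermediate and 6.57, 6.31 and 5.94 in WT1-negative samples. Neither in vivo group overlapped with culture, and the differences were -1.59 (adjusted p = 5.9e-05) and -1.49 (adjusted p = 0.00011).

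The Pecam1 probes parted. ILMN_2700982 read 6.90, 6.88 and 6.71 in WT1-negative samples, with differences of -1.44 in WT1-high (adjusted p = 9.4e-06) and -0.92 in WT1-intermediate aHSCs (adjusted p = 0.0003). ILMN_3147074, annotated to transcript variant 2, read 5.32, 5.14 and 5.57 in WT1-high, 5.48, 6.08 and 5.40 in WT1-intermediate and 5.89, 5.95 and 5.35 in WT1-negative samples. All groups overlapped at that probe, and its differences from culture were -0.39 (95% interval -0.88 to 0.11) and -0.08 (-0.57 to 0.42).

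Of the receptor tyrosine kinases, Tek read 5.98, 5.82 and 5.68 in the WT1-negative samples, below all 6 in vivo values. It was 1.52-fold higher in WT1-high (log2 difference 0.60, standard error 0.17, adjusted p = 0.011) and 2.60-fold higher in WT1-intermediate aHSCs (1.38, adjusted p = 5.4e-05). The first call was lost without WT1-negative replicate 14 (adjusted p = 0.055). Tie1 went the other way. It read 5.16, 4.83 and 5.09 in culture, 4.50, 4.38 and 4.29 in WT1-high and 4.30, 4.57 and 4.29 in WT1-intermediate samples, and its difference from culture was -0.64 in each in vivo group (adjusted p = 0.0041 and 0.0042), where it was detected on 1 of 3 arrays.

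Kdr was barely measured. Its deposited intensity was 74.3 to 94.5 on the in vivo arrays and 100, 105 and 106 on the WT1-negative ones, where the median negative control bead read 76.3 to 93.6. Kdr was not detected on any in vivo array and was detected on all 3 WT1-negative ones, with detection p-values of 0.026, 0.028 and 0.049. It was at least 1.12-fold lower in WT1-intermediate aHSCs (adjusted p = 0.014, or 0.055 with median scaling), and the WT1-high difference did not pass (adjusted p = 0.075). A second Kdr probe, from a Riken clone, was detected on no array and was not tested.

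Eng read 6.66, 6.97 and 6.68 in WT1-negative samples, between the in vivo groups. It was 1.48-fold lower in WT1-high (log2 difference -0.56, standard error 0.15, adjusted p = 0.0077) and 1.33-fold higher in WT1-intermediate aHSCs (0.42, adjusted p = 0.035), where median scaling turned the sign to -0.20 (0.24 above the median of all probes). The second call was lost without WT1-intermediate replicates 8 (adjusted p = 0.12) or 30 (0.061) or WT1-negative replicates 3 (0.12) or 14 (0.12). Stab2 read 6.27, 6.27 and 5.96 and Lyve1 6.84, 6.66 and 6.40 in WT1-negative samples. Neither passed the test against either in vivo group: Stab2 differed by -0.47 in WT1-high (95% interval -0.94 to 0.0029) and 0.46 in WT1-intermediate aHSCs (-0.0093 to 0.94), and Lyve1 by -0.41 (-0.93 to 0.11) and 0.51 (-0.014 to 1.03). Under median scaling the WT1-intermediate differences turned to -0.050 for Stab2 and -0.098 for Lyve1, which were 0.39 and 0.34 above the median of all probes. Without WT1-high replicate 29, Stab2 (adjusted p = 0.022), Lyve1 (0.04) and Kdr (0.044) passed as lower in WT1-high aHSCs, which made 12 called probes in place of 9, where 56.3% of all probes were called.

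The ligands and partners of TIE2 and of the VEGF receptors ran both ways. Angpt2, the angiopoietin that competes at TIE2, had a level of 8.89 ± 0.12 in WT1-negative samples (SD, n = 3) and differed by -4.28 (WT1-high, adjusted p = 1.9e-07) and -3.53 (WT1-intermediate, adjusted p = 1.1e-06), the opposite direction to its receptor gene Tek. Ptprb, the endothelial phosphatase VE-PTP that acts on TIE2, was higher in vivo, by 2.40 and 3.16. Nrp1 differed by -3.69 and -2.19, and Vegfc, the ligand of lymphatic VEGFR3, by 2.86 and 2.24. Gdf2, which encodes BMP9, the high-affinity ligand of endoglin and ALK1, was detected on all in vivo arrays and on no WT1-negative one, and was at least 6.13-fold and 4.99-fold higher in vivo. Flt1 (VEGFR1) and Acvrl1 (ALK1) are named for their role and not by the size of their change: Flt1 rose by 0.84 in WT1-intermediate aHSCs (adjusted p = 0.0047, or 0.57 with median scaling), and Acvrl1 passed in neither comparison. Of the 22 tested, 8 rose and 5 fell in each comparison with culture, with medians of 0.23 and 0.46. That is 59.1% called in each, near the share of all probes (59.6% in WT1-high and 58% in WT1-intermediate aHSCs).

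**Figure D4:**
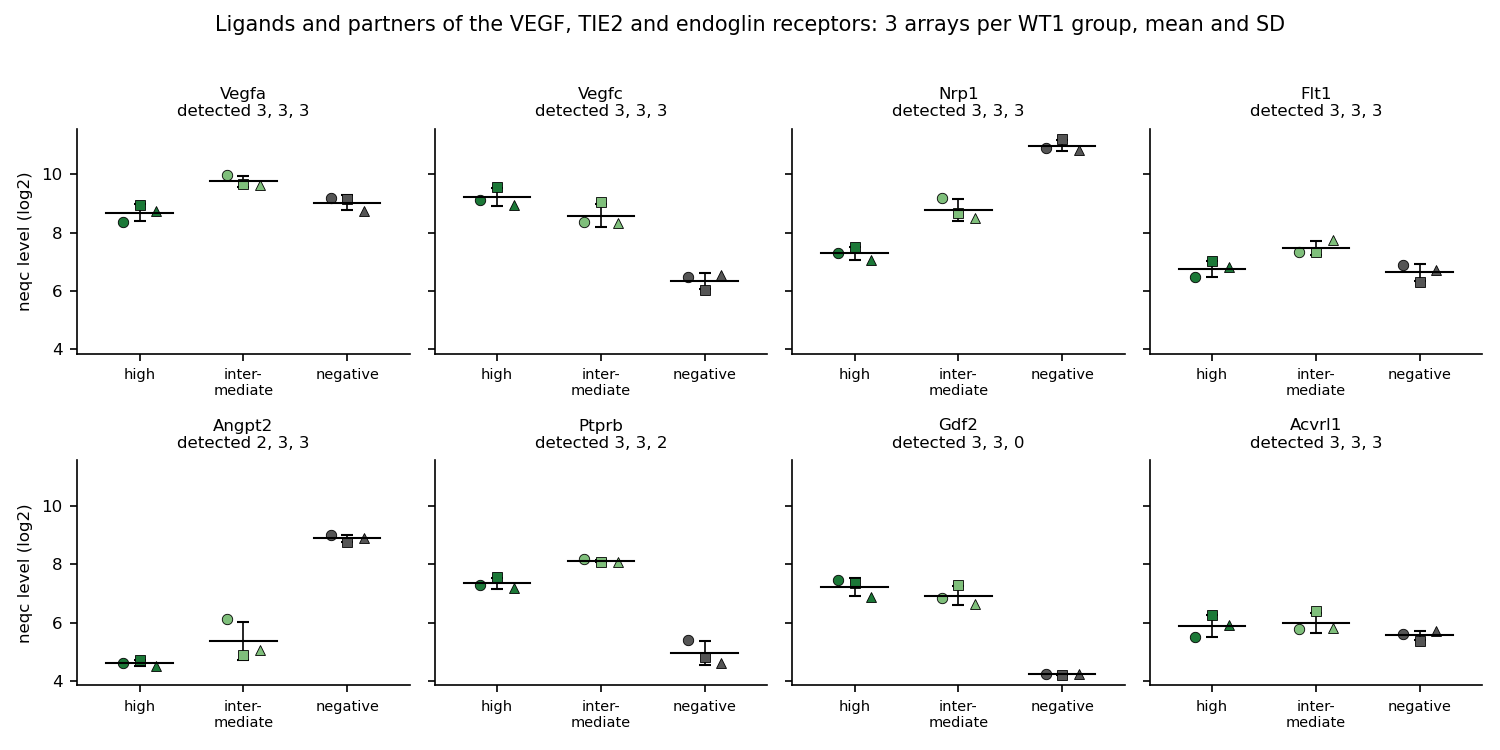
Level (neqc, log2) of 8 ligands and partners of the VEGF, TIE2 and endoglin receptors in the 3 groups; symbols, bars, whiskers and headings as in the plot of the member probes. Angpt2 and Nrp1 are highest in the WT1-negative samples, Gdf2 was not detected there, and Vegfa and Nrp1 are lower in WT1-high than in WT1-intermediate samples.

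Among the 32 tested other endothelial genes, 10 rose and 16 fell in WT1-high aHSCs against culture, with a median of -0.63, and 10 rose and 14 fell in WT1-intermediate aHSCs, with a median of -0.27. The largest differences ran both ways. Cav1 was higher by 5.56 and 4.86, the surface sialomucin gene Cd34 by 4.51 and 4.15, and Tm4sf1, a surface tetraspanin-like gene not detected in culture, was at least 16.5-fold and 14.4-fold higher. Esm1, the tip cell proteoglycan endocan, was lower by -4.40 and -3.75. Named after their values were seen, Emcn (endomucin, -2.95 in WT1-high), Fli1 (an ETS transcription factor, -2.86) and Cldn5 (claudin-5 of tight junctions, -2.49) were among the fallen, beside Cdh5, Pecam1 and Vwf. The endothelial transcription factor genes Erg and Tal1 did not pass the filter.

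Among the 17 tested sinusoidal genes, 9 rose and 6 fell in WT1-high aHSCs against culture, with a median of 0.82, and 8 rose and 6 fell in WT1-intermediate aHSCs, with a median of 0.20. Mrc1 was lower by -5.69 and -4.60, Fcna by -4.72 and -2.46, and Fcgr2b by -4.20 and -3.12, the same order of groups as Stab1 probe ILMN_2727432. Wnt2 was not detected in culture and was at least 10.1-fold and 6.58-fold higher in vivo. The sinusoidal lectin gene Clec4g was higher by 2.76 and 3.45, and Adam23 by 2.88 and 2.95. Both lists held genes that rose and genes that fell, and so did all probes. Of all probes 26.5% were called higher and 33.1% lower in WT1-high aHSCs, and 24.4% and 33.6% in WT1-intermediate ones. The share called in either direction was 81.25% and 75% of the endothelial list and 88.2% and 82.4% of the sinusoidal list.

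**Figure D5:**
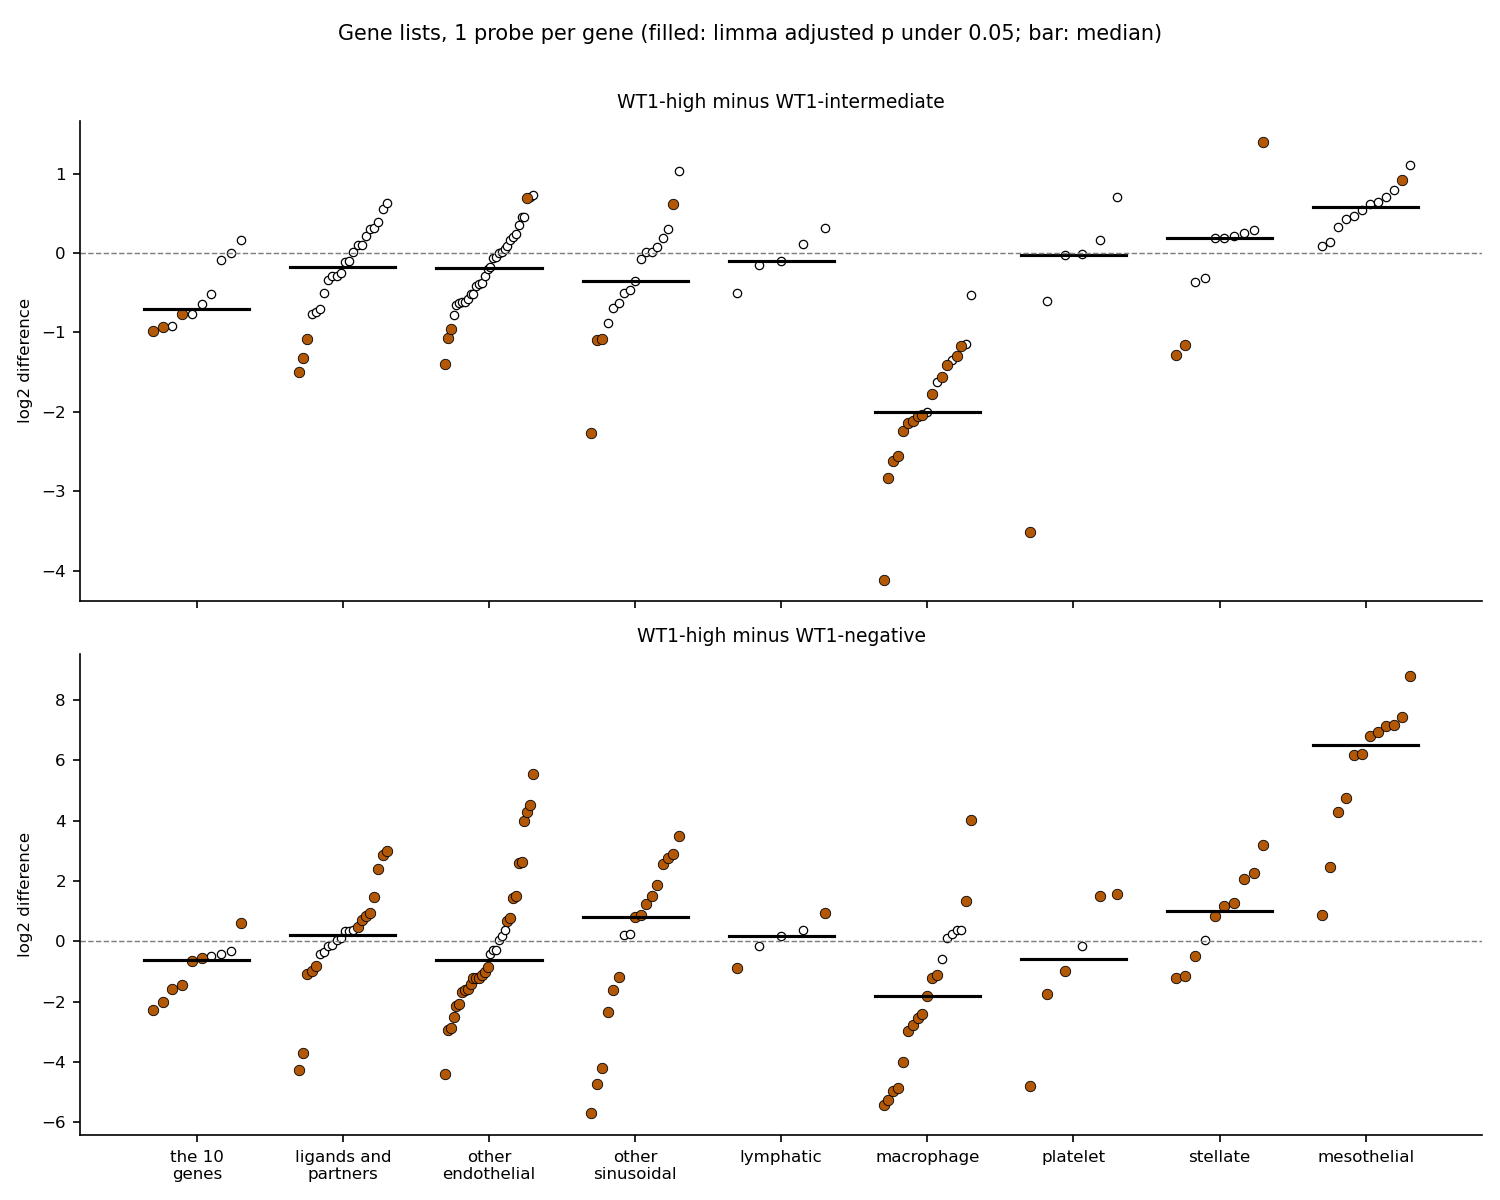
Log2 differences of WT1-high minus WT1-intermediate (top) and WT1-high minus WT1-negative (bottom) for the genes of 9 lists, 1 point per gene by its brightest tested probe; filled points passed an adjusted p under 0.05 and the bar is the median. In the top panel the macrophage list lies lowest (median -2.00), and in the bottom panel the endothelial and sinusoidal lists reach from -5.69 to 5.56.

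The other cell types moved as well between culture and liver, where 59.6% of all probes were called in WT1-high and 58% in WT1-intermediate aHSCs. Against culture, 12 of 19 macrophage genes fell and 2 rose in WT1-high aHSCs, and 6 fell and 7 rose in WT1-intermediate aHSCs. All 12 mesothelial genes rose in both comparisons, and the summed level of that list was 314 to 385 in WT1-negative samples, 18425 to 26047 in WT1-intermediate and 30530 to 37258 in WT1-high ones. Of 10 tested HSC genes 6 rose and 3 fell in WT1-high aHSCs, and 6 rose and 2 fell in WT1-intermediate ones. Of 8 T and NK cell genes 8 and 7 rose, of 8 hepatocyte genes 6 and 4, and of 4 B cell genes 2 and 1, with 1 B cell gene fallen in WT1-high aHSCs. Of 5 tested lymphatic endothelial genes 1 rose and 1 fell in each comparison, and Prox1, the transcription factor that defines lymphatic endothelium, did not pass the filter. Between WT1-high and WT1-intermediate aHSCs no lymphatic, T, NK, B cell or hepatocyte gene passed limma's test, of the HSC genes Des rose and Pdgfrb and Hgf fell, and of the mesothelial genes Dmkn passed, as higher. The last count depended on the scaling, with 7 mesothelial genes higher under median scaling, 3 without background correction and none with cyclic loess. Des kept its call in 8 of 20 alternatives and Hgf in 7 of 19. With median scaling no HSC gene was called lower, so Pdgfrb too lost its call there. The part of these cell types in the endothelial values was not tested.

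For a closer look at how the genes varied, the probes with the nearest profile over the 9 arrays, each centred on its own mean, were found for Cdh5 and Lyve1. For Cdh5 (profile SD 0.73) these were Apbb1ip, Gpihbp1, Sox7, 1700081H05Rik and Smpdl3b, at a root mean square difference of 0.18 to 0.23 in log2 units. For Lyve1 (profile SD 0.49) they were LOC278188, 2610103N14Rik, Glrx1, 9530053J19Rik and Itgb5, at 0.22 to 0.24. These are a description over 9 arrays, of which the 6 in vivo ones came from 3 animals.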

How the data were processed

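The authors deposited BeadStudio summary probe profiles of 9 Illumina MouseWG-6 v2.0 arrays: for each probe an intensity on the linear scale, not normalised, with its bead number and error, and a detection p-value against 936 negative control probes, also deposited. The upstream image processing is not given in the sources used here. With limma 3.58.1 in R 4.3.3, intensities were background corrected on the negative controls, given an offset of 16, quantile normalised and set to log2 (neqc), as the study's methods outline. The tests used the 20573 probes that 3 or more arrays detected (p under 0.05), a filter the study does not state. limma's moderated two-sided tests came from 1 linear model of the 3 groups over the 9 arrays, with 6 residual and 5.19 prior degrees of freedom and Benjamini-Hochberg adjustment. It was tested on simulated data. Errors are SD or standard error over 3 arrays, which limits the precision. The study's methods state that replicates of in vitro work were independent isolations of cells. The labels do not tie the WT1-negative samples to separate cultures, so p-values measure the spread between these samples, which may be in part technical. Where a probe was not detected in a group, "at least" folds use the dimmest detected signal of each array.

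The 10 genes and 11 other gene lists (193 entries, of which 187 matched by symbol, 1 by synonym and 5 were not on the array) were chosen with earlier results of these data known. A listed gene was taken by its brightest tested probe. Flt4 and Nrp2 stand in both the ligand and lymphatic lists, and Selp in the endothelial and platelet lists. Named were every member by every probe, genes of the ligand, endothelial and sinusoidal lists called between the in vivo groups, up to 4 of each of these with the largest difference from culture, and defining markers of other cell types. Others were named after their values were seen. WT1-high and WT1-intermediate samples of 1 animal deviated together (r = 0.35, 0.34 and 0.47, other pairs -0.39 to 0.03), with the pairing taken from the replicate numbers and the study's 3 animals. WT1-intermediate replicate 30 is headed 29 in the deposited array table. It was identified through the joined table, whose column bears that sample's label and holds the same intensities, and was paired with WT1-high replicate 29. Per-array columns not used here numbered 63. Alternatives were other background corrections, offsets, scalings and filters, array weights, blocks and leaving out each array. No genome build is named in the files, so no coordinates are given.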

Additional observations from a re-analysis of the deposited data

How the results depend on the processing

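The number of member probes called between WT1-high and WT1-intermediate aHSCs was 4, beside 3.55% of all probes. It was 0 by limma with median scaling (1 at an unadjusted p under 0.05; 13.0% of all probes), 1 without the filter (0.740%), 1 with only the compared groups in the fit (1.65%), 2 without background correction (2.48%), 2 with an offset of 50 (2.84%), and 7 with the random replicate block (8.73%) or with a fixed replicate block in which 29 and 30 were 1 animal (8.05%), against 3 (3.97%) with a fixed block by label number, which pairs only replicates 1 and 8. Leaving out 1 array gave 1 to 5 (1.61% to 4.27%). Against WT1-negative aHSCs the counts stayed within 7 to 12 over the alternatives, for both in vivo groups, and the replicate block changed no call there. Of 710 recomputed member differences 630 kept direction and side of the threshold, 41 lost a call, 19 gained one and 20 changed sign, of which 1, Eng in WT1-intermediate against WT1-negative aHSCs, had been called: it was -0.20 with median scaling. Under median scaling the WT1-intermediate differences of Stab2 and Lyve1 were -0.050 and -0.098, and those of WT1-high against WT1-intermediate were 0.040 for Pecam1 ILMN_3147074, -0.019 for Tie1, 0.0074 for Stab1 ILMN_2544343 and 0.0048 for Vwf. Tie1 was -0.00053 with an offset of 50 and -0.10 with cyclic loess, and Pecam1 ILMN_3147074 in WT1-intermediate against WT1-negative aHSCs was 0.15 with cyclic loess and 0.13 with array weights. Leaving out 1 array gave -0.23 to 0.071 for Cdh5 ILMN_2866951, -0.055 to 0.090 for Tie1 and -0.20 to 0.022 for Vwf between the in vivo groups, and -0.29 to 0.051 for Pecam1 ILMN_3147074 between WT1-intermediate and WT1-negative aHSCs. The cause of these changes was not tested. Tie1, Vwf, Kdr and Cdh5 ILMN_2866951 lay near background on the in vivo arrays. Of the called list genes, Vegfa in WT1-intermediate against WT1-negative aHSCs changed sign, to -0.0037 under median scaling.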
